A study of Mus musculus with 6 samples.

Results

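Nuclear genes of mammals are transcribed by RNA polymerases I, II and III, and the genes for their subunits carry the symbols Polr1, Polr2 and Polr3 followed by a letter. The rows of the count table whose symbol has that form were taken, 31 of 24470 genes: 8 Polr1, 13 Polr2 and 10 Polr3 genes. They encode 29 polymerase subunits, the polymerase II-associated protein Gdown1 (Polr2m) and an antisense transcript next to Polr1h (Polr1has), which encodes no subunit. The libraries came from naive CD4+ T cells of male C57BL/6J mice, purified by MACS, a magnetic bead method, out of spleen and skin-draining lymph nodes, and held for 6 h on immobilized antibodies to CD3 and CD28. In the 3 CCL19 libraries the medium held recombinant mouse CCL19, a ligand of the chemokine receptor CCR7. In the 3 no-CCL19 libraries (labelled NoCKN) it did not, so both groups carry the T cell stimulus and unstimulated cells were not analysed here. Nothing in the labels says whether the replicates of a group are different mice or different wells. The p-values therefore reflect only how much these libraries differ, and that may be technical.

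Polymerase I makes the long precursor of ribosomal RNA in the nucleolus. Polymerase II makes messenger RNA, and polymerase III makes transfer RNA, 5S ribosomal RNA and other short transcripts. A resting T cell makes little of these products and raises their output as it grows toward its first division. The enzymes are built alike: a pair of large subunits forms the catalytic centre, a set of small subunits is common to all of them (Polr2e, Polr2f, Polr2h, Polr2k and Polr2l), and a pair is common to polymerases I and III (Polr1c and Polr1d). A symbol therefore does not always say which enzyme holds the protein.

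Levels are given in CPM, counts per 1000000 reads of a library after TMM scaling. Library totals ran between 16978736 and 27429898 counts, and each of the 31 genes passed the filter on low counts. The members held between 44 counts (Polr1has) and 16652 counts (Polr2a) in a library, and Polr1has, Polr2k and Polr2l had the lowest levels. The marker sums that follow are the exception and were not TMM-scaled. The TMM factors ran between 0.9792 and 1.003 with CCL19 and between 1.002 and 1.016 without it. Summed markers of T cells stood between 3070 and 3330 CPM with CCL19 and between 3260 and 3600 CPM without it. Those of B cells stood between 15.5 and 20.4 CPM with CCL19 and between 19.8 and 23.2 CPM without it, and those of myeloid cells between 37.3 and 45.4 CPM with CCL19 and between 44.1 and 54.0 CPM without it. Of the 5 stromal and endothelial markers only Pecam1, which naive T cells also express, passed the filter on low counts, so the sum of that list is not read. Among all markers read, only Pdpn of stromal cells was at 0 in every library. The part of these shifts in the results below was not tested, and less RNA per cell and fewer cells of a type cannot be told apart in bulk samples.

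No polymerase gene passed edgeR's quasi-likelihood test at a Benjamini-Hochberg adjusted p under 0.05. The share called over all 11666 tested genes was 0.00% in either direction. The lowest edgeR adjusted p over all tested genes was 0.0505, just above that cut-off. At an unadjusted p under 0.05, 13 of the 31 genes were higher with CCL19, against 14.5% of all tested genes, and 0 were lower, against 13.0%. DESeq2 called 4 members higher, Polr1b, Polr3b, Polr3d and Polr3f, where it called 6.55% of the 9613 genes to which it gave an adjusted p. It called 0 members lower, against 5.60%, and gave Polr1has no adjusted p. The same 4 members are the ones that the authors' deposited table lists as changed, each with CCL19 above NoCKN. limma-voom called 0 members, and over all tested genes it called 0 higher and 0 lower.

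Most of the subunit genes stood slightly higher with CCL19, by at most 1.25-fold apart from Polr1b at 1.32-fold. The log2 fold change was above 0 for 26 of the 31 genes, against 49.8% of all tested genes, with a median of 0.15 against -0.000744. The groups did not overlap for 14 genes that stood higher with CCL19 (15.3% of all tested genes) and for 1 that stood lower, Polr2i (14.5%). Median log2 fold changes were 0.21 over the 7 Polr1 subunit genes, 0.06 over the 13 Polr2 genes and 0.17 over the 10 Polr3 genes. Without no-CCL19 replicate 1 these medians were 0.17, 0.07 and 0.11. The differences between the 3 sets were not tested.

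**Figure D1:**
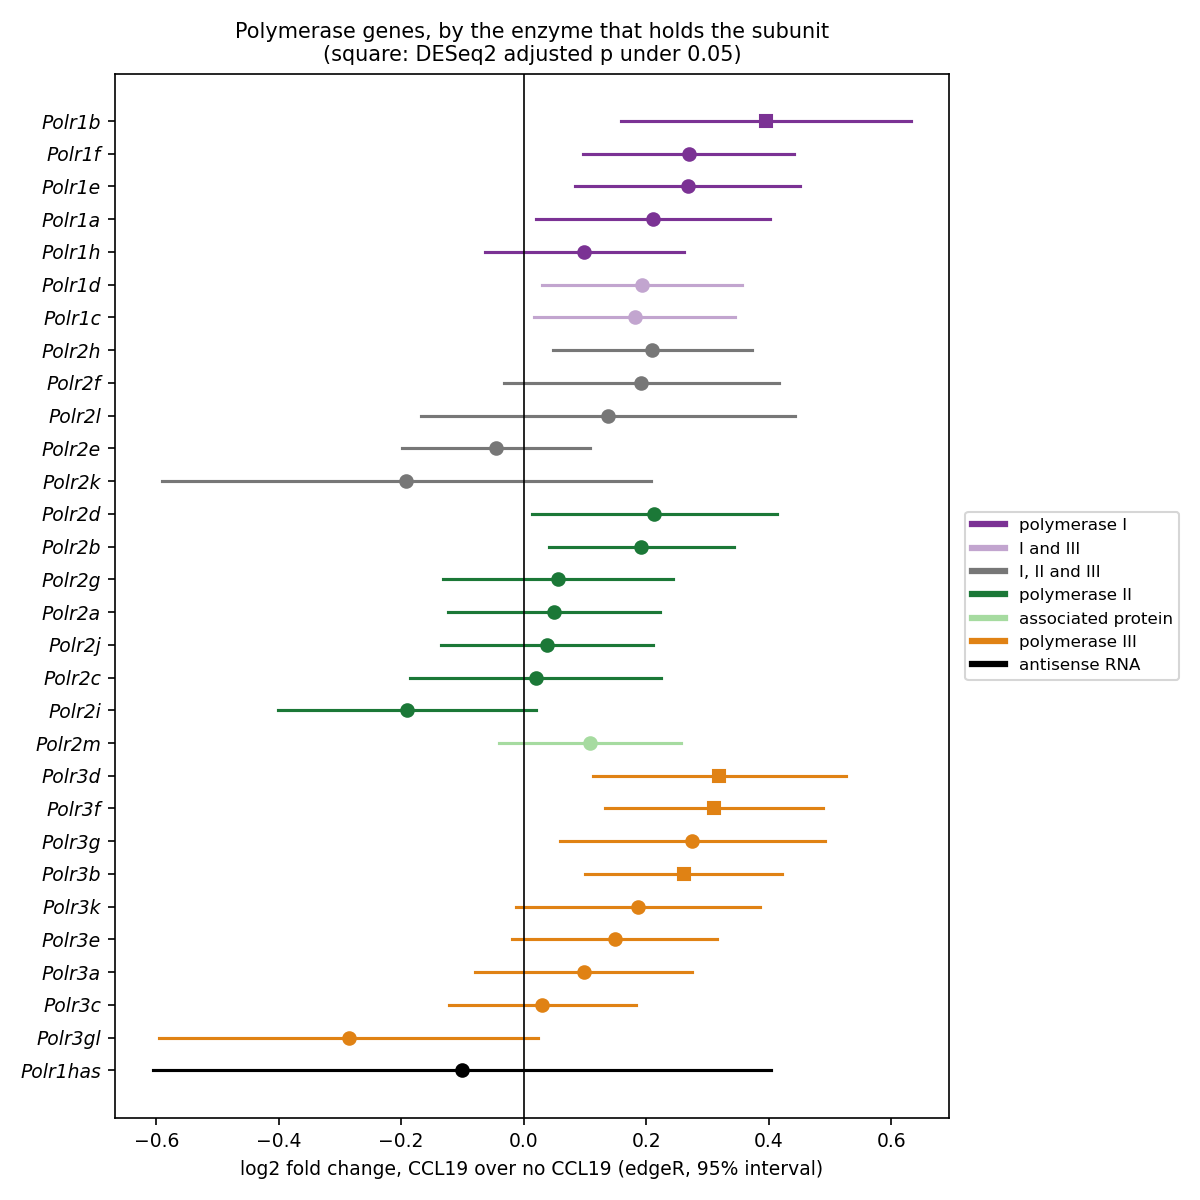
Log2 fold change of 30 of the 31 polymerase genes, CCL19 over no CCL19, with its 95% interval from edgeR (x axis), for genes grouped by the enzyme that holds the protein (colour). The 5 genes of polymerase I alone all lie right of 0, 6 of the 7 of polymerase II alone lie right of 0, and Polr3gl has the lowest estimate in this fit at -0.29.

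The starts of 3 of the 4 genes that DESeq2 called are shown here with those of Polr3g and Polr3gl, a pair of paralogs described further below. Each window holds 250 bases before to 50 bases after the annotated start, 5′ to 3′ on the gene's strand, from RefSeq on GRCm38.p6. Capitals mark the E-box CACGTG, to which MYC and its relatives bind, the ETS core CCGGAAG and the inverted CCAAT box GATTGG, each searched on both strands (the E-box reads alike on either). The Polr1b window (chr2:129100746-129101045, plus strand) and the Polr3f window (chr2:144527495-144527794, plus strand) held none of these letters. The Polr3b window (chr10:84622048-84622347, plus strand) and the Polr3g window (chr13:81710964-81711263, minus strand) held 1 ETS core each. The Polr3b window ends before the start of that gene in the count table (84622437), so the annotated starts differ for Polr3b. The Polr3gl window (chr3:96594132-96594431, minus strand) held 1 E-box, which begins at position -194 from the start, and 1 inverted CCAAT box.
Polr1b: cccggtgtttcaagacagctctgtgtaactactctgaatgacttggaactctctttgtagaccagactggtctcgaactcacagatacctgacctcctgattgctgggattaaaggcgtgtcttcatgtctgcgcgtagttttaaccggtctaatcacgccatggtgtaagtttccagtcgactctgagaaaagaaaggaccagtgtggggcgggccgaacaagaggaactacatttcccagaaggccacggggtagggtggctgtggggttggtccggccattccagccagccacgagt
Polr3f: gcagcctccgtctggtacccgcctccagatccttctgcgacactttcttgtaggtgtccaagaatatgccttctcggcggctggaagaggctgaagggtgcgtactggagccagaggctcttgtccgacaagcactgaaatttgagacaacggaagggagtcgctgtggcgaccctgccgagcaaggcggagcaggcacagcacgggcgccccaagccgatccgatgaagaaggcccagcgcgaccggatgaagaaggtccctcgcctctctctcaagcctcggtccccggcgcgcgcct
Polr3b: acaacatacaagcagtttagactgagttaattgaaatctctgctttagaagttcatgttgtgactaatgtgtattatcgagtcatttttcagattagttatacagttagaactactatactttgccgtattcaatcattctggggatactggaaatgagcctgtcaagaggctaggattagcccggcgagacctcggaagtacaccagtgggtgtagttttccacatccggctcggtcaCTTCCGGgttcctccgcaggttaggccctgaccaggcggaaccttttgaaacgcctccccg
Polr3g: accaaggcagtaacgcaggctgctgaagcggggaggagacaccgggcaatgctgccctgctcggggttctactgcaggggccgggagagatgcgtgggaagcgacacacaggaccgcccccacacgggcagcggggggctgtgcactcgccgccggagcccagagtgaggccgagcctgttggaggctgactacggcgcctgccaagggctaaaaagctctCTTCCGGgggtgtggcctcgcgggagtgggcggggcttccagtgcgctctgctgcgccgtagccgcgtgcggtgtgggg
Polr3gl: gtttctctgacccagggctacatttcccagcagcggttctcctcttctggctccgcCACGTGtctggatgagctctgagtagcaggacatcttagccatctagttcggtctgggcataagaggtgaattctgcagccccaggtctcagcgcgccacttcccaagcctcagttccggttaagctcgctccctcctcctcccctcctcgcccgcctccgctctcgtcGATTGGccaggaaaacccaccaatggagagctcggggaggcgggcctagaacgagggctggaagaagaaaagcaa

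Windows were at hand for 25 of the 31 genes, 29 windows in all. An E-box lay in 4 of them, at Polr2h, Polr3c, Polr3e and Polr3gl, and in 7.15% of all 32851 windows or 10.3% of those of tested genes. An ETS core lay in 7, at Polr1c, Polr1e, Polr2c, Polr2f, Polr2j, Polr3b and Polr3g, and in 8.86% of all windows or 18.6% of those of tested genes. An inverted CCAAT box lay in 5, and in 16.1% of all windows or 20.4% of those of tested genes. None of the 4 genes with an E-box was called by DESeq2. No match says only that these letters are not in the window.

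Polymerase I showed the most uniform pattern: all 5 genes for subunits found in it alone stood higher with CCL19, with a median log2 fold change of 0.27. Over all tested genes 49.8% had a log2 fold change above 0. Polr1b, the second-largest subunit, which forms the catalytic centre together with the largest, had 299, 266 and 223 CPM with CCL19 and 172, 221 and 205 CPM without it. The groups did not overlap, though CCL19 replicate 3 and no-CCL19 replicate 2 lay close together. Its log2 fold change of 0.40 ± 0.11 (SE), or 1.32-fold, was the largest of all members (edgeR adjusted p = 0.0595, DESeq2 adjusted p = 0.0128; NCBI Gene 20017, mm10 chromosome 2, 129100996 to 129126595).

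Polr1a, the largest subunit, which carries the other part of the catalytic centre, had 271, 248 and 216 CPM with CCL19 and 200, 224 and 211 CPM without it. The groups overlapped, since CCL19 replicate 3 lay below no-CCL19 replicate 2, and the log2 fold change was 0.21 ± 0.09 (edgeR adjusted p = 0.146). The catalytic pair thus had unlike estimates, but the 95% interval of Polr1a (0.02 to 0.40) and that of Polr1b (0.16 to 0.63) overlap, and the difference between these genes was not tested.

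The accessory subunits of polymerase I separated the groups more cleanly. Polr1e, which forms a detachable pair that aids initiation, had 78.6, 76.5 and 74.1 CPM with CCL19 and 56.3, 70.4 and 63.6 CPM without it (log2 fold change 0.27 ± 0.09, edgeR adjusted p = 0.0764). Polr1f, a subunit of the stalk that contacts the initiation factor RRN3, had 41.2, 41.2 and 41.3 CPM with CCL19 and 32.1, 35.7 and 34.8 CPM without it (0.27 ± 0.08, edgeR adjusted p = 0.0671). The CCL19 libraries of Polr1f lay almost on each other and all above the rest. Polr1h, the small subunit that takes part in cleaving the nascent RNA, averaged 42.0 ± 0.598 CPM with CCL19 and 39.3 ± 0.573 CPM without it (SD, n = 3 each). Its groups did not overlap either, but the log2 fold change of 0.10 was the smallest of the 5 (95% interval -0.06 to 0.26).

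Polr1c and Polr1d, which join early in assembly and serve polymerases I and III, had nearly the same shift. Polr1c averaged 80.9 ± 3.38 CPM with CCL19 and 71.3 ± 4.83 CPM without it, a log2 fold change of 0.18 ± 0.08 (edgeR adjusted p = 0.146). Polr1d had 132, 127 and 128 CPM with CCL19 and 103, 119 and 117 CPM without it, a log2 fold change of 0.19 ± 0.08 (edgeR adjusted p = 0.123). Neither gene's groups overlapped, and neither gene passed in DESeq2 (adjusted p = 0.155 for Polr1c and 0.114 for Polr1d). The antisense transcript Polr1has averaged 2.75 ± 0.728 CPM with CCL19 and 2.97 ± 0.448 CPM without it, and its interval of -0.60 to 0.40 is too wide to show a change of the size seen in its neighbours.

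**Figure D2:**
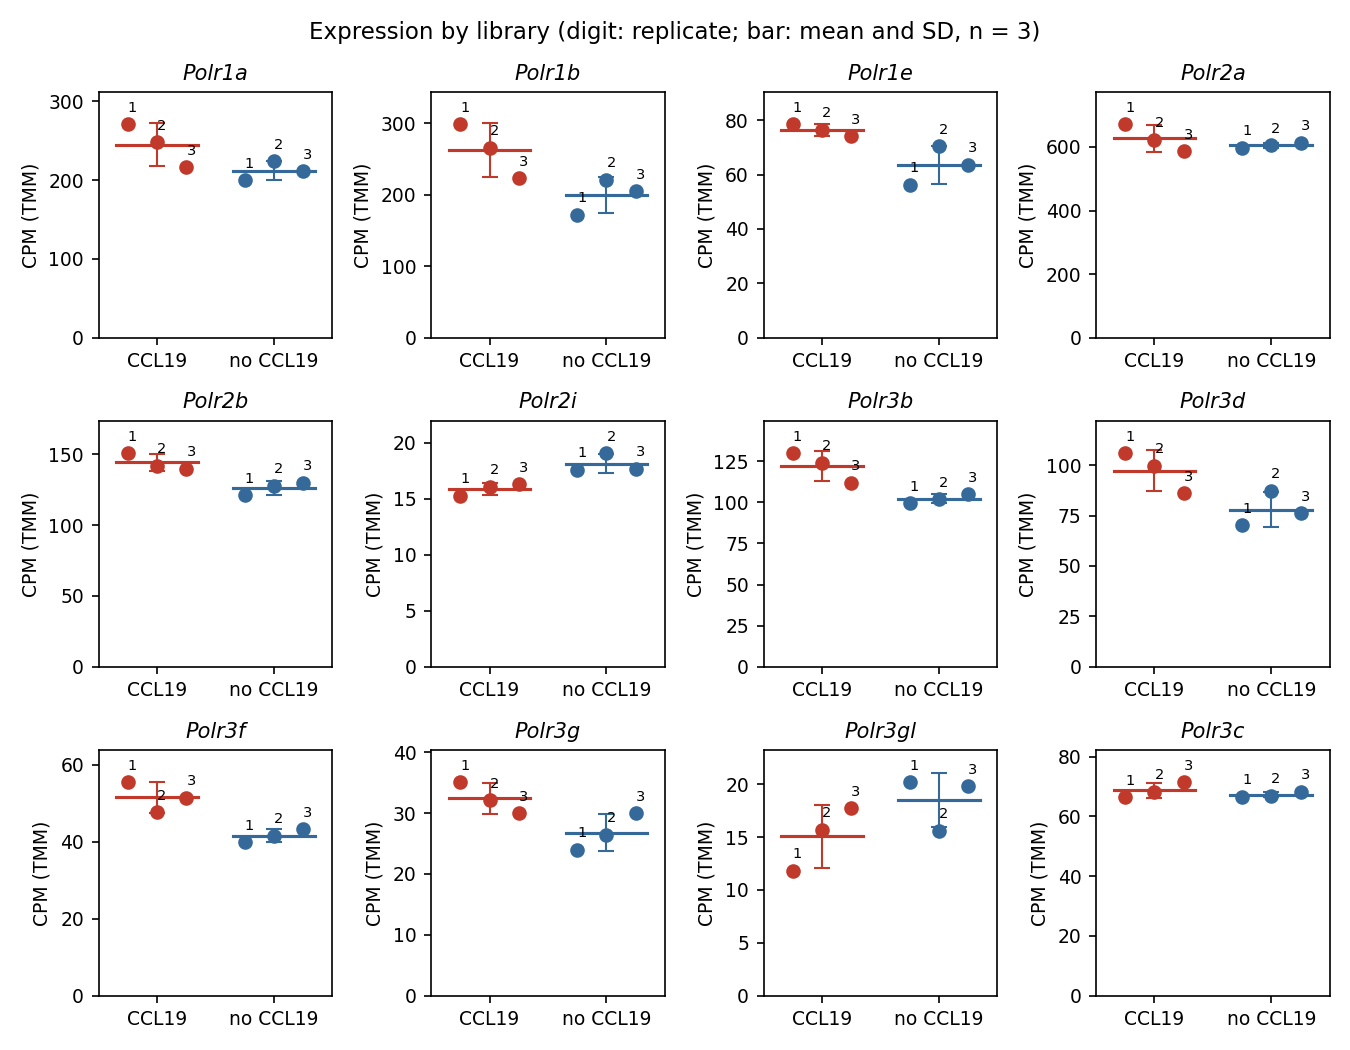
CPM of 12 polymerase genes in each library (points, numbered by replicate; bars give the mean and SD of 3 libraries), CCL19 left of no CCL19, with each y axis starting at 0. CCL19 replicate 1 and no-CCL19 replicate 1 often mark the extremes, as for Polr1b at 299 and 172 CPM, while Polr2a stays between 586 and 672 CPM in all 6 libraries.

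For the 7 subunit genes of polymerase II alone, 6 log2 fold changes were above 0 and 1 below, with a median of 0.05. Polr2a, the largest subunit, whose tail of heptad repeats is phosphorylated during transcription, had 672, 622 and 586 CPM with CCL19 and 597, 606 and 613 CPM without it. These libraries overlapped, with both the highest and the lowest value in the CCL19 group, and the log2 fold change was 0.05 ± 0.08. Its 95% interval ran from -0.12 to 0.22 and overlaps that of Polr1b (0.16 to 0.63). The difference between Polr2a and Polr1b was not tested. Polr2a was also the member with the most counts.

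Polr2b, the second-largest subunit and catalytic partner of Polr2a, had 151, 142 and 140 CPM with CCL19 and 121, 128 and 130 CPM without it. All CCL19 libraries lay above all others, and the log2 fold change was 0.19 ± 0.07 (edgeR adjusted p = 0.105, DESeq2 adjusted p = 0.0826). In both polymerases I and II, then, the estimate for the second-largest subunit lay above that for the largest, and the same order held in polymerase III (Polr3b at 0.26, Polr3a at 0.10); none of these differences was tested.

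The remaining genes of polymerase II alone had estimates on both sides of 0. Of the stalk subunits, Polr2d averaged 30.1 ± 1.72 CPM with CCL19 and 25.9 ± 2.13 CPM without it (log2 fold change 0.21 ± 0.09, edgeR adjusted p = 0.158), and its partner Polr2g had 37.9 ± 3.6 CPM with CCL19 and 36.5 ± 0.692 CPM without it (0.06 ± 0.09). Neither passed a test, and the difference between them was not tested. The assembly pair Polr2c and Polr2j had log2 fold changes of 0.02 and 0.04, with 95% intervals of -0.18 to 0.22 and -0.14 to 0.21. Polr2i, a small subunit known from yeast to aid accurate transcription, was the 1 member with all CCL19 libraries below all others, at 15.3, 16.1 and 16.3 CPM with CCL19 and 17.6, 19.1 and 17.7 CPM without it. Its log2 fold change was -0.19 ± 0.10 (edgeR adjusted p = 0.225). Of its 1212 exon bases, 325 overlap the gene Tbcb on the opposite strand, and whether the counting used strand is not stated, so its counts are uncertain. The same holds on a smaller share of the exons for Polr2b, Polr2c, Polr2f, Polr2h and Polr2j, which overlap Igfbp7, Dok4, 1700088E04Rik, Clcn2 and Lrwd1. Outside the Polr2 genes, Polr3b overlaps Gm17249 (247 of 5262 exon bases) and Polr3gl overlaps Gm16253 (57 of 1597), also on the opposite strand. Polr1a overlaps Gm26628 (185 of 11871) and Polr1has overlaps Gm27735 (76 of 1713) in the same way. These other genes have no row in the count table, so the counts of these members are uncertain too.

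Of the 5 subunits common to all 3 enzymes, 3 had a log2 fold change above 0 and 2 below, with a median of 0.14. Polr2h had 55.5, 54.9 and 52.4 CPM with CCL19 and 45.2, 48.4 and 47.2 CPM without it, with no overlap and a log2 fold change of 0.21 ± 0.08 (edgeR adjusted p = 0.1). Polr2f averaged 53.3 ± 4.56 CPM with CCL19 and 46.5 ± 6.90 CPM without it (0.19 ± 0.10), with overlapping groups. Polr2e, the most abundant of the 5, had 108 ± 3.48 CPM with CCL19 and 111 ± 5.85 CPM without it (-0.04 ± 0.07). The least abundant of the 5 were Polr2k, with 5.50 ± 1.53 CPM with CCL19 and 6.38 ± 0.431 CPM without it, and Polr2l, with 8.51 ± 1.27 CPM with CCL19 and 7.69 ± 0.389 CPM without it. Their 95% intervals of the log2 fold change were wide, -0.59 to 0.21 for Polr2k and -0.17 to 0.44 for Polr2l. Parts of the Polr2h and Polr2k transcripts match Gm7511 (97.978% identity) and Gm46136 (96.04%), which have no row of their own in the count table, so the counts of both genes are uncertain. Polr2f and Polr2e are the most GC-rich members, at 60.34% and 58.54% GC, and an offset for GC content and transcript length moved the log2 fold change of Polr2f to 0.35 and that of Polr2e to 0.09. Gdown1 (Polr2m), which binds polymerase II and limits its access to initiation factors, averaged 147 ± 3.74 CPM with CCL19 and 136 ± 5.60 CPM without it (0.11 ± 0.07), without overlap.

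Polymerase III held 3 of the 4 genes that DESeq2 called, where 6.55% were called higher over all genes. For polymerase III 9 of 10 log2 fold changes were above 0, against 49.8% of all tested genes. This direction was shared by 5 of 5 genes of polymerase I alone and 6 of 7 of polymerase II alone. Polr3f, part of a trio of subunits that opens the promoter and recruits initiation factors, had 55.5, 47.6 and 51.4 CPM with CCL19 and 39.8, 41.5 and 43.2 CPM without it. All CCL19 libraries lay above all others, with a log2 fold change of 0.31 ± 0.08 and the lowest edgeR adjusted p of any member, 0.0550 (DESeq2 adjusted p = 0.0237; NCBI Gene 70408, mm10 chromosome 2, 144527745 to 144541779). Polr3b, the second-largest subunit, had 130, 124 and 112 CPM with CCL19 and 99.5, 102 and 105 CPM without it, again without overlap (log2 fold change 0.26 ± 0.07, edgeR adjusted p = 0.0610, DESeq2 adjusted p = 0.0278; NCBI Gene 70428, mm10 chromosome 10, 84622437 to 84727178).

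Polr3d, which with Polr3e forms a pair that acts in initiation and termination, had 106, 99.7 and 86.0 CPM with CCL19 and 70.1, 87.3 and 76.2 CPM without it. Here the groups overlapped, since no-CCL19 replicate 2 lay above CCL19 replicate 3 (log2 fold change 0.32 ± 0.10, edgeR adjusted p = 0.0678, DESeq2 adjusted p = 0.0323; NCBI Gene 67065, mm10 chromosome 14, 70438748 to 70443471). Its partner Polr3e averaged 116 ± 6.27 CPM with CCL19 and 105 ± 7.89 CPM without it (0.15 ± 0.08, edgeR adjusted p = 0.233). Polr3a, the largest subunit, had 101 ± 9.38 CPM with CCL19 and 94.7 ± 5.48 CPM without it (0.10 ± 0.08). Polr3k, the small subunit that takes part in RNA cleavage, averaged 25 ± 0.263 CPM with CCL19 and 22.0 ± 1.73 CPM without it (0.19 ± 0.09, edgeR adjusted p = 0.210).

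The initiation trio of polymerase III has an interchangeable member, encoded by the paralogs Polr3g and Polr3gl. In other settings Polr3g is known for high expression in growing and undifferentiated cells, whereas Polr3gl is widely expressed. Polr3g had 35.1, 32.1 and 30 CPM with CCL19 and 24.0, 26.4 and 30 CPM without it, so that CCL19 replicate 3 and no-CCL19 replicate 3 were level to the first decimal (log2 fold change 0.28 ± 0.10, edgeR adjusted p = 0.105). Polr3gl had 11.8, 15.7 and 17.7 CPM with CCL19 and 20.2, 15.6 and 19.8 CPM without it, with overlap (-0.29 ± 0.14, edgeR adjusted p = 0.216). The third member of the trio, Polr3c, had 68.7 ± 2.60 CPM with CCL19 and 67.3 ± 0.908 CPM without it. Its log2 fold change of 0.03 ± 0.07 lay between those of Polr3g and Polr3gl.

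The ratio of Polr3g to Polr3gl counts needs no scaling between libraries. It was 2.98, 2.04 and 1.69 with CCL19 and 1.19, 1.69 and 1.52 without it. CCL19 replicate 1 stood well above the rest, and CCL19 replicate 3 and no-CCL19 replicate 2 were equal to 2 decimals. On the log2 scale the ratio averaged 1.12 ± 0.42 with CCL19 and 0.54 ± 0.26 without it, a difference of 0.59 or 1.5-fold (exact permutation test, 2-sided, p = 0.1, the smallest that 3 against 3 libraries allow). Without CCL19 replicate 1 the difference was 0.36, and without no-CCL19 replicate 1 it was 0.44.

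**Figure D3:**
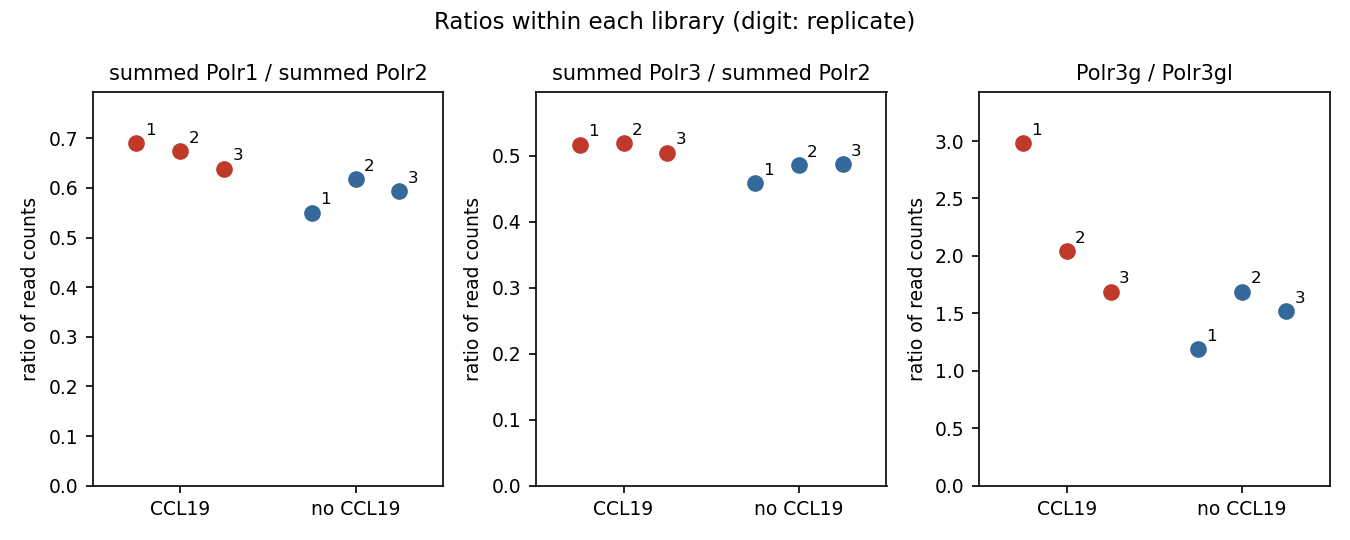
Ratios of read counts within each library (points, numbered by replicate), CCL19 left of no CCL19, for summed Polr1 over summed Polr2 genes, summed Polr3 over summed Polr2 genes, and Polr3g over Polr3gl. The first ratio lies between 0.639 and 0.690 with CCL19 and between 0.550 and 0.618 without it, and in the right panel CCL19 replicate 1 stands apart at 2.98.

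Setting the polymerases against each other within a library gave the same order. Reads on Polr1 subunit genes amounted to 0.690, 0.674 and 0.639 of those on Polr2 genes with CCL19 and to 0.550, 0.618 and 0.593 without it, with no overlap. On the log2 scale the ratio averaged -0.58 ± 0.06 with CCL19 and -0.77 ± 0.09 without it, a difference of 0.19. Reads on Polr3 genes amounted to 0.517, 0.519 and 0.505 of those on Polr2 genes with CCL19 and to 0.459, 0.486 and 0.487 without it, again without overlap and with a log2 difference of 0.11. With only those subunits that belong to 1 polymerase the differences were 0.21 and 0.11, and without Polr2a, which gave the most reads, 0.16 and 0.08. These ratios are descriptions of the summed genes and were not tested.

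The libraries did not contribute evenly. Of the 30 members other than Polr1has, 17 were highest in CCL19 replicate 1, against 26.4% of all tested genes, and 20 were lowest in no-CCL19 replicate 1, against 27.1%. Of these 30 members 26 had a log2 fold change above 0, against 49.8% of all tested genes. The shares over all genes thus cover both directions evenly, and the part of direction in these counts was not tested. As a mean deviation from each gene's own average, the 5 genes of polymerase I alone stood at 0.20, 0.14 and 0.03 on the log2 scale with CCL19 and at -0.24, -0.03 and -0.11 without it. Those of polymerase III alone stood at 0.11, 0.09 and 0.02 with CCL19 and at -0.16, -0.03 and -0.03 without it. Those of polymerase II alone stood at 0.06, 0.04 and -0.02 with CCL19 and at -0.07, 0.02 and -0.03 without it. CCL19 replicate 3 was thus the closest of its group to the no-CCL19 libraries for all of these sets.

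**Figure D4:**
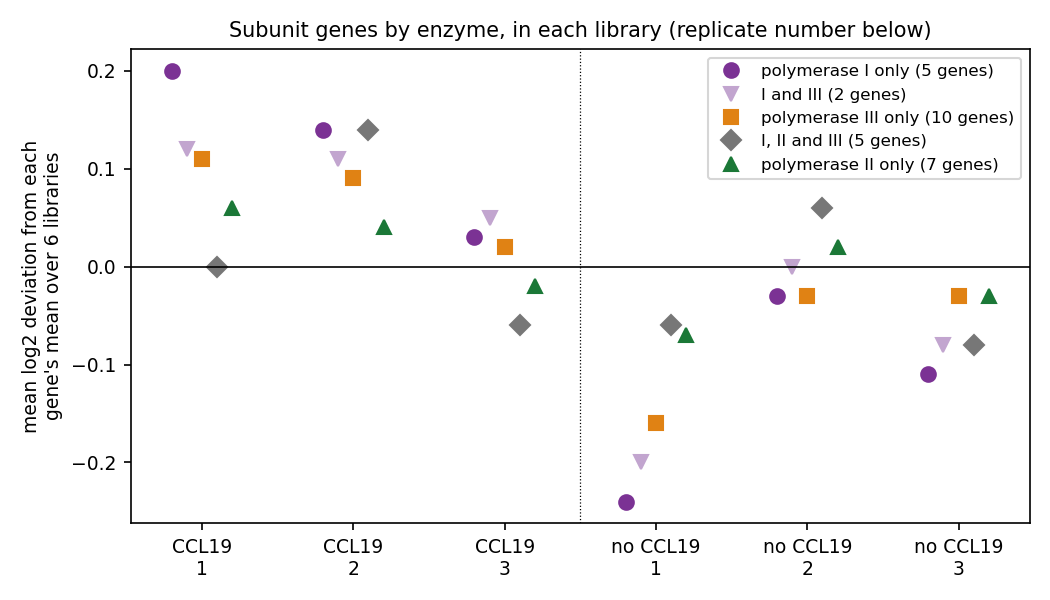
Mean log2 deviation of subunit genes from each gene's mean over the 6 libraries (y axis), by library (x axis) and by the enzyme that holds the subunit (symbols). The polymerase I genes run from 0.20 in CCL19 replicate 1 to -0.24 in no-CCL19 replicate 1, while the polymerase II genes stay between 0.06 and -0.07.

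The calls among members depended on which libraries were kept, as did those over all genes. DESeq2 called no member without CCL19 replicate 1, where it called 20 genes higher and 35 lower in all. It called none without CCL19 replicate 2 (56 higher and 67 lower in all) and none without no-CCL19 replicate 1 (60 higher and 45 lower in all). Without no-CCL19 replicate 2 it called Polr1b, Polr1e and Polr3d (604 higher and 406 lower in all), so Polr3b and Polr3f were lost. Without no-CCL19 replicate 3 it called Polr1b, Polr3b, Polr3f and Polr3g (709 higher and 549 lower in all), so Polr3d was lost. Without CCL19 replicate 3 edgeR and DESeq2 each called the same 5 members higher, Polr1a, Polr1b, Polr3b, Polr3d and Polr3f, where over all genes edgeR called 772 higher and 827 lower and DESeq2 905 and 799. The offset for GC content and length left 7 members called higher by DESeq2, with Polr1d, Polr1e, Polr2f and Polr2h added and Polr3f lost (adjusted p = 0.0780). Over all genes that offset changed the DESeq2 split to 670 higher and 319 lower, against 630 higher and 538 lower without it. Spearman's rho of GC content with fold change was -0.222 over the 31 members and -0.319 over 11598 tested genes, given as a description, since the genes share the same libraries.

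The levels of the members, compared per kilobase of the longest annotated coding transcript, overlapped between the enzymes, but the 9 highest were all Polr1 or Polr2 genes and the highest Polr3 gene was Polr3d at 43.1 CPM per kb. Polr1d (101 CPM per kb), Polr2e (95.2) and Polr2a (91.4) stood highest as means over all 6 libraries, and Polr2m (64.3), Polr1c (57.9), Polr1b (57.8), Polr2f (56.4), Polr1h (54.8) and Polr2h (53.3) followed. Polr1a stood at 24.8, Polr3a at 20.9 and Polr3b at 22.6 CPM per kb, so the largest subunit of polymerase II stood well above those of the other enzymes. Polr3g (9.69) and Polr3gl (11.8) lay close together on this scale, although Polr3g has more reads. The values depend on the transcript chosen, and the low level of Polr2c (11.1) goes with a chosen transcript of 3881 bases.

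Other genes of the same machinery were read from lists of general knowledge. The table names 2 more subunits by other symbols: Cd3eap, the partner of Polr1e in polymerase I, averaged 93.5 ± 2.95 CPM with CCL19 and 78.9 ± 9.58 CPM without it (log2 fold change 0.24 ± 0.09, edgeR adjusted p = 0.1), and Crcp, a stalk subunit of polymerase III, at 41.1 ± 0.421 CPM with CCL19 and 37.4 ± 0.396 CPM without it (0.13 ± 0.08). Both had groups without overlap. The mitochondrial polymerase Polrmt averaged 84.0 ± 5.71 CPM with CCL19 and 86.7 ± 11.2 CPM without it. edgeR called no gene of any list below. The counts of each list are to be read against all tested genes, of which 49.8% were above 0 and DESeq2 called 6.55% higher and 5.60% lower.

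Of 9 tested factors of polymerase I, 6 had a log2 fold change above 0, with a median of 0.12, and DESeq2 called 1 higher, the chromatin remodeller Smarca5 (0.30). Rrn3, which recruits polymerase I to its promoter, averaged 127 ± 12.7 CPM with CCL19 and 106 ± 8.63 CPM without it (0.26 ± 0.09, edgeR adjusted p = 0.0839). Of 17 tested factors of polymerase III, 10 were above 0 (median 0.03), near the 49.8% of all tested genes. DESeq2 called 2 of them higher, Ssb, which binds the ends of polymerase III transcripts (0.33), and the TFIIIB subunit Bdp1 (0.32), and 1 lower. The lower one was Maf1, the repressor of polymerase III that nutrient and growth signals hold in check, with 135 ± 15.6 CPM with CCL19 and 169 ± 18.6 CPM without it (-0.31 ± 0.10, edgeR adjusted p = 0.0707, DESeq2 adjusted p = 0.0269), without overlap.

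For polymerase II, 29 of 33 tested general transcription factor genes had a log2 fold change above 0, against 49.8% of all tested genes, with a median of 0.10, and DESeq2 called 2 higher, Taf9 (0.36) and the cyclin Ccnh of TFIIH (0.33), a share near the 6.55% over all genes. Of 32 Mediator subunits, 21 were above 0 (median 0.07) and DESeq2 called 2 higher, Med14 (0.36) and Ccnc (0.34), again near that share. Of 38 tested elongation and tail-modifying factors, 25 were above 0 (median 0.05). DESeq2 called 4 of these higher, among them Larp7 (0.33) and Cdc73 (0.31), and 2 lower, the phosphatases Ctdsp1 (-0.35) and Ctdsp2 (-0.32), near the 5.60% called lower over all genes. Of 20 assembly and import factors, 16 were above 0 (median 0.06), and DESeq2 called 0, with 4 at an unadjusted edgeR p under 0.05.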

How the data were processed

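RNA of 6 libraries (3 CCL19, 3 NoCKN) was sequenced from TruSeq libraries. The authors deposited raw read counts per gene on mm10, per the file headers. STAR 2.5, Subread, featureCounts 1.5.0-p1 and DESeq2 1.28.1 are named in the submitters' processing notes; the strand setting, the treatment of multi-mapped reads and the annotation release are not stated there. A second table deposited by the authors names the genes they took as changed and says which group is higher, without its threshold.

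Counts were tested with edgeR 4.0.16 (filterByExpr, TMM, quasi-likelihood F test) in R 4.3.3 over 11666 genes, adjusted by Benjamini-Hochberg and called under 0.05. The SE is the log2 fold change divided by the square root of F. DESeq2 1.42.0 and limma 3.58.1 (voom) were alternatives. The other alternatives were DESeq2 size factors, other filters, a robust prior, a replicate block, a GC and length offset (splines of 5 degrees of freedom) and each library left out. All tools were tested on simulated counts. There edgeR and DESeq2 each recovered 24% of genes changed 1.3-fold, and limma-voom 22%. Of the calls on simulated counts, 9.03% were false for edgeR, 8.97% for limma-voom and 13% for DESeq2. Few genes were changed in the simulation, whereas in the data 14.5% were higher and 13.0% lower at an unadjusted edgeR p under 0.05. The rates of recovery and of false calls may therefore not carry over to the data. GC content and length came from GENCODE M21 (GRCm38), exon overlaps too, and promoters from RefSeq GRCm38.p6. The genes named are those that match the symbol rule, except 1 that is counted in the totals but not reported singly here, and up to 4 genes of smallest p in each other list. Polr1has was left out of sums and class medians. The members and lists were chosen with earlier results of these data known.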

Additional observations from a re-analysis of the deposited data

How the results depend on the processing

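edgeR called 0 genes in all, and DESeq2 630 higher and 538 lower (4 and 0 among members). edgeR called 803 genes higher and 797 lower with no filter (5 members higher), 267 and 262 with a robust prior (1 member higher), and between 0 and 772 higher and 0 and 827 lower when 1 library was left out (0 to 5 members). DESeq2 called 103 higher and 75 lower with a replicate block (0 members), 670 and 319 with the GC and length offset (7 members), and 20 to 905 higher and 35 to 799 lower when 1 library was left out (0 to 5 members). edgeR with the replicate block called 0. Deviations of same-numbered libraries correlated at -0.164, 0.0814 and -0.0207, and those of differently numbered ones at between -0.214 and 0.217. With 3 libraries per group these values cannot tell whether replicate numbers pair the libraries. When 1 library was left out, the median of the Polr1 genes ran between 0.17 and 0.26. That of the Polr3 genes ran between 0.11 (without no-CCL19 replicate 1) and 0.24 (without no-CCL19 replicate 2). The Polr2 median ran between 0.03 (without CCL19 replicate 1) and 0.10 (without CCL19 replicate 3, and also with the GC and length offset). The medians of the Polr1, Polr2 and Polr3 symbols and the 3 ratios kept their sign under the settings run; medians by enzyme were not recomputed. Polr2e stood at 0.09 with the GC and length offset, with and without the block. When 1 library was left out, Polr1has ran between -0.34 and 0.06, Polr2a between -0.01 and 0.09, Polr2c between -0.05 and 0.10, Polr2g between -0.03 and 0.10, Polr2k between -0.43 and -0.04, Polr2l between 0.03 and 0.23, Polr3gl between -0.42 and -0.15 and Polr3c between -0.01 and 0.05. The cause was not tested. Polr1has, Polr2k and Polr2l had the lowest levels of the members, and the part of depth in their ranges was not tested.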
